A study of Homo sapiens with 24 samples.

Results

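In parental PC9 cells, 1143 thin peaks of 1 peak-calling run lay on all 41 chromosome arms counted, and their number per Mb differed between arms. They were densest on the short arm of chromosome 12, with 25 peaks where the genome mean would give 13.4, and on 5p, with 29 against 18.5. They were sparse on 9p, with 9 against 19, on 8p, with 8 against 17.3, and on 18q, with 11 against 23.8. These peaks are all those of the parental wild-type list whose names begin with the stem of its first run. They make up 1143 of the 1226 peaks of that list and of the 6236 peaks of the series. No measured value entered the choice.

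PC9 is an established lung adenocarcinoma line, of human origin, whose growth is driven by a mutant EGFR receptor. The wild-type cells were untreated and carried no tagged protein, and chromatin was immunoprecipitated by an antibody to the MYC tag. The group has 2 replicates and 2 matched inputs, and no label or file says which replicate gave this run. The other immunoprecipitated groups serve only for comparison. These are PC9 with METTL7A carrying MYC-tag and FLAG, the osimertinib-resistant line PC9-OR with the same construct, and the PC9-OR controls (wild type, empty vector and the K86A form of METTL7A). PC9-OR cells were kept in 1 uM osimertinib, an inhibitor of the EGFR kinase. No label says whether a line is a single clone.

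Tumour lines gain and lose whole arms and shorter segments of chromosomes, and these changes set how much DNA each region contributes to a library. When an immunoprecipitation enriches little, most of its fragments are background from the whole genome. Their density along the chromosomes then follows the number of copies, together with base composition and how well reads map. Counting fragments per region is the usual way to read copy number from shallow sequencing. Peaks are a coarser count, since a peak needs overlapping fragments.

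The peaks were thin. Of the 1143, 1054 (92.2%) had 2 fragments at the summit, 82 had 3 and 7 had 4, as recovered from the deposited fold enrichment and p-value. Fold is the authors' ratio of fragments to local background, taken here as having 1 added to both. It ranged from 2.88 to 2.96 for peaks of 2 fragments and from 4.75 to 4.94 for those of 4. The deposited −log10 q was 1.34 for 1056 peaks and never above 2.01. Peaks were 231 to 496 bp wide, with a median of 284 bp, and covered 340268 bp in all. They lay apart from one another: the median distance between neighbouring summits was 1.58 Mb, and only 5 of 1120 distances were under 10 kb. The closest pair, in 15q25.2, was 3636 bp apart.

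A 2-fragment peak marks a place where fragments happen to overlap or where they were enriched, and the data of 1 run do not tell these apart. If fragments fall independently, the number of such places goes with the square of the local fragment density. The square root of the relative peak density is therefore given beside it below, as arithmetic and not as a measured copy number. Whether fragments fell independently was not tested.

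The peaks with most fragments were scattered. The 7 peaks with 4 fragments were on 6 chromosomes. The one with the highest fold, 4.94, was chr13:75057619-75057856 in 13q22.1 (GRCh37), and the next, with a fold of 4.90, was chr7:103907501-103907772 in 7q22.2. Chromosome 2 held a pair of them, chr2:11264054-11264512 in 2p25.1 and chr2:226283764-226284177 in 2q36.3, both with a fold of 4.85. The others were chr1:205487100-205487528 in 1q32.1, at 4.89, chr15:99478096-99478536 in 15q26.3, at 4.85, and chr11:110197816-110198090 in 11q22.3, at 4.75. Among the 82 peaks with 3 fragments, the rule for named peaks takes chr12:16608597-16608919 in 12p12.3, chr12:97701847-97702212 in 12q23.1 and chr13:113849144-113849504 in 13q34, each with a fold of 3.95. A gene annotation of this build was not used here, so peaks are placed by cytogenetic band only.

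Densities were computed over 2812 Mb of chromosomes 1 to 22 and X, leaving out centromere, variable heterochromatin and stalk bands. There the run held 1131 peaks, or 0.402 per Mb. A relative density of 1 is this genome mean. Assembly gaps and places where reads map poorly were not taken out of the counted length. Their part in the density of any arm was not tested. Each value has an exact 95% binomial (Clopper-Pearson) interval, which covers counting error only and is not adjusted for the number of arms, and there is no replicate of this run to give another error. The remaining 12 peaks were in the left-out bands, 8 in centromere bands and 4 in variable ones. No peak lay on chromosome Y, on the mitochondrial genome or on another contig.

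By whole chromosome, 7 and 5 were highest and 21 and 19 lowest. Chromosome 7, which carries EGFR, held 86 peaks against 62.5 by length, a relative density of 1.38 (1.11 to 1.68). Chromosome 5 held 93 against 70.9, 1.31 (1.07 to 1.59). On chromosome 21 there were 6 against 13.6, 0.441 (0.162 to 0.957), on chromosome 19 there were 10 against 18.8, 0.532 (0.256 to 0.975), and on chromosome 1 there were 70 against 91.8, 0.763 (0.599 to 0.956). The intervals of the other 18 chromosomes held the genome mean. They ran from 0.668 for chromosome 18, with 20 peaks, to 1.26 for chromosome 20, with 30. The calls depended on the setting. With full band length the interval of chromosome 19 held 1 (0.629, 0.345 to 1.05). That of chromosome 3 then lay above (1.26, 1.03 to 1.53) and that of 13 below (0.692, 0.469 to 0.982). With 2-fragment peaks only, that of chromosome 21 held 1 (0.478, 0.176 to 1.04). Chromosome X, with 53 peaks, was at 0.876 (0.660 to 1.14), and at 1.58 (1.13 to 2.13) among the 459 peaks at the lowest background, defined below. The second value still divides by all band length, so it follows from the low share of X peaks above that background.

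Of 41 arms, the interval lay above the genome mean in 4, or 9.76% of arms, and below it in 5, or 12.2%. The highest was 12p with 1.87 (1.21 to 2.74), whose square root is 1.37. It was followed by 5p with 1.56 (1.05 to 2.23), 7q with 57 peaks and 1.45 (1.11 to 1.87), and 3q with 55 peaks and 1.37 (1.04 to 1.77). The square roots of these were 1.25, 1.21 and 1.17. Also among the 6 highest, 20q had 21 peaks and 1.55 (0.964 to 2.36) and 18p had 9 and 1.45 (0.666 to 2.75), and both intervals held 1. The intervals of these 6 arms overlap one another, so their order is not settled by the counts.

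The low end was formed by small groups of peaks. Arm 21q had 6 and 0.441 (0.162 to 0.957), 8p had 8 and 0.461 (0.20 to 0.906), 18q had 11 and 0.463 (0.232 to 0.825), and 9p had 9 and 0.473 (0.217 to 0.895). Their square roots lay between 0.664 and 0.688. The fifth arm below the mean, 1p, had 35 peaks and 0.716 (0.501 to 0.990). The lowest value of all was that of 19p, with 3 peaks and 0.373, but its interval reached 1.09, and 19q with 7 peaks was at 0.651 (0.262 to 1.34). Between 12p and 9p the ratio of densities was 3.95, and the square root of that ratio was 1.99. The intervals of 12p and of each of 21q, 8p, 18q and 9p did not overlap. The calls depended on the peaks used. With 2-fragment peaks only, the intervals of 5p (1.46, 0.95 to 2.15), 1p (0.732, 0.506 to 1.02) and 21q (0.478, 0.176 to 1.04) held 1, and with full band length that of 1p did (0.744, 0.520 to 1.03). Among the 89 peaks with at least 3 fragments 8p was at 1.48 (0.180 to 5.20) with 2 peaks and 12p at 0.960 (0.0243 to 5.21) with 1. Among the 459 peaks at the lowest background 5p was at 0.676 and 3q at 0.813, and the intervals of 0 of the 9 arms lay on their side of the mean. Above it there were 3p at 1.70 (1.10 to 2.50), 6q at 1.68 (1.13 to 2.37) and Xp at 1.93 (1.15 to 3.02). Band length was not limited to places at the lowest background. Arms with a larger share of peaks above that background therefore fall here by construction, so these values do not test the arm calls.

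**Figure D1:**
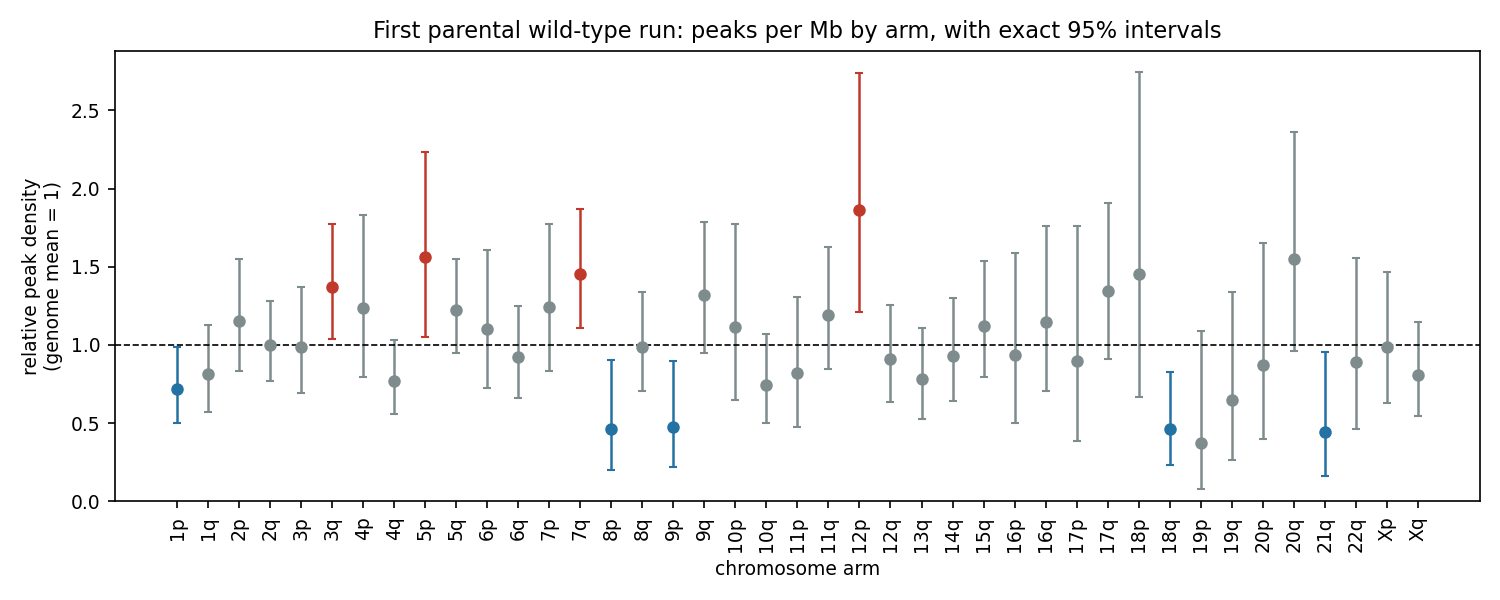
Relative peak density (peaks per Mb divided by the genome mean, no unit) of the 41 chromosome arms in the first parental wild-type run, with exact 95% intervals; red marks arms whose interval lies above 1, blue those below, grey the rest. Arms 3q, 5p, 7q and 12p sit above the dashed genome mean and 1p, 8p, 9p, 18q and 21q below it, and the intervals of the other 32 arms hold it.

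Several chromosomes had arms on different sides of the mean. On chromosome 18 the short arm was at 1.45 and the long arm at 0.463, on 9 the arms were at 0.473 and 1.32 (9q, 40 peaks), and on 12 they were at 1.87 and 0.910 (12q, 35 peaks). Both arms of chromosome 8 were under 1, with 0.461 on the short arm and 0.987 on the long arm, which held 39 peaks. The intervals of 9p and 9q lay apart, and those of the arms of chromosomes 8, 12 and 18 overlapped. On chromosome 7 the arms were alike in direction, with 29 peaks and 1.24 (0.836 to 1.77) on 7p beside 1.45 on 7q. The same was true of chromosome 5, where 5q held 64 peaks and was at 1.22 (0.947 to 1.55).

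Within arms, the direction was the same on both sides of the middle. When each arm was cut at the middle of its counted length, all 8 segments of the 4 high arms were above 1 and all 10 segments of the 5 low arms were below 1. The segments hold few peaks and are not independent of the arms they make up, so these counts only describe where the peaks lay. On 12p the centromere side had 17 peaks and a relative density of 2.54 (1.48 to 4.05), and the end side had 8 and 1.19 (0.517 to 2.35). On 5p the end side had 17 and the centromere side 12, at 1.83 and 1.29. On 3q the excess lay on the centromere side, with 34 peaks and 1.70, against 21 and 1.05 on the end side. On 9p the sides held 6 and 3 peaks, on 8p 5 and 3, and on 18q 4 at the end and 7 near the centromere.

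At the level of bands the counts were small. The 784 bands in use held at most 9 peaks each, and 265 of them held 0, the longest of these being 7.7 Mb. All 22 bands of at least 8 Mb held a peak. The densest of the 448 bands of at least 3 Mb was 4q31.3, at 4:151100001-155600000, with 9 peaks where the genome mean gives 1.81, or 2.00 per Mb with an exact 95% Poisson interval of 0.915 to 3.80. It lies on an arm that was at 0.772 as a whole. Next was 12p12.1, at 12:21300001-26500000, with 8 peaks against 2.09, or 1.54 per Mb (0.664 to 3.03). The other bands among the 8 densest were 5p15.1, 15q25.2, 10p11.21 and 3q13.31 with 5 peaks each, and 5q31.3 and 6p21.1 with 7 each, at 1.23 to 1.47 per Mb. These bands were ranked on their counts among 448, so their intervals overstate how far they stand apart.

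The longest stretch without a peak outside the left-out bands ran over 18.4 Mb of the short arm of chromosome 1, from a summit in 1p36.32 to one in 1p36.12 (1:3212492-21651526). At the genome mean it would hold 7.42 peaks. The next were 16.7 Mb from 4q23 to 4q26, 15.7 Mb from 2q24.1 to 2q31.1 and 14.5 Mb from 1p31.1 to 1p22.2.

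Regions around known cancer genes were neither dense nor empty as a group. The bands of 14 receptor, oncogene and tumour suppressor genes, with METTL7A among them, held 24 peaks in 54.7 Mb. That is 0.439 per Mb (exact 95% Poisson interval 0.281 to 0.653), beside 0.402 over the genome. Because the set mixes oncogenes with tumour suppressors, the pooled value does not speak to either kind alone. The EGFR band 7p11.2 held 1 peak against 1.61 by length. Band 5p15.33, with TERT, which makes the enzyme part of telomerase, held 2 against 1.81. The band of the MET receptor, 7q31.2, and that of cyclin D1 (CCND1), 11q13.3, held 3 each, against 1.13 and 0.804, and that of CRKL, a signalling adaptor, 22q11.21, held 3 against 1.73. The MYC, ROS1 and METTL7A bands held 0, against 1.69, 1.49 and 0.965. The MDM2 band held 2 and the NKX2-1, RB1 and SMAD4 bands 1 each, and that of STK11 held 2. The band of CDKN2A, which encodes inhibitors of the cell cycle, 9p21.3, held 5 of the 9 peaks of 9p, against 2.29 by length. Every one of these intervals is wide, and a band spans several Mb, so none of these values bears on a single gene.

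The local background gave a second readout, one that the rule for members did not use, although the peak caller did. It is the number of fragments per position that the peak caller set as the level for no enrichment. The most common value, called the floor here, was 0.0131 and held for 459 peaks, and 684 peaks (59.8%, exact 95% interval 56.9 to 62.7%) had more. Of these 684 values, 680 (99.4%) were whole multiples of a step for windows of 10 kb, 1 kb or 231 bp. The allowed misfit was 0.05 of a step for 10 kb and tighter for the shorter windows. Within a narrow range, the step was chosen to make this share largest, so the share partly follows from that choice. The step was 0.000242 for 10 kb and 0.0105 for 231 bp, which is also the smallest peak width. This is the pattern that read ends of a second, deeper library give when they are scaled down to 2.10% of their number, with both ends of a fragment counted, and the floor was worth 53.9 such ends per 10 kb. That this library is the matched input is an inference, since the control is not stated in the labels or lists. A peak above the floor thus lies where this second library is denser than its genome mean in at least 1 of the windows. In the 231 bp window the floor of 0.0131 is little above a single step of 0.0105. Very few read ends there are therefore enough, and the part of such counting noise was not tested.

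By chromosome, the share of peaks above the floor was lowest on X, with 15 of 53 (28.3%, 16.8 to 42.3%), and highest on 19, with 10 of 10 (69.2 to 100%). It was 30 of 33 on chromosome 16 (90.9%), 33 of 38 on 17 (86.8%) and 24 of 30 on 20 (80.0%), and 29 of 67 on chromosome 4 (43.3%) and 13 of 30 on 13 (43.3%). On chromosome 19 the low peak density thus went with a raised background, with a median of 0.0314 beside the floor of 0.0131. The list holds 2-fragment peaks only up to a background of 0.0405, and peaks of 3 fragments up to 0.0945. Places with 2 fragments and a higher background are not in the list, and the part of this limit in the low count of chromosome 19 was not tested.

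**Figure D2:**
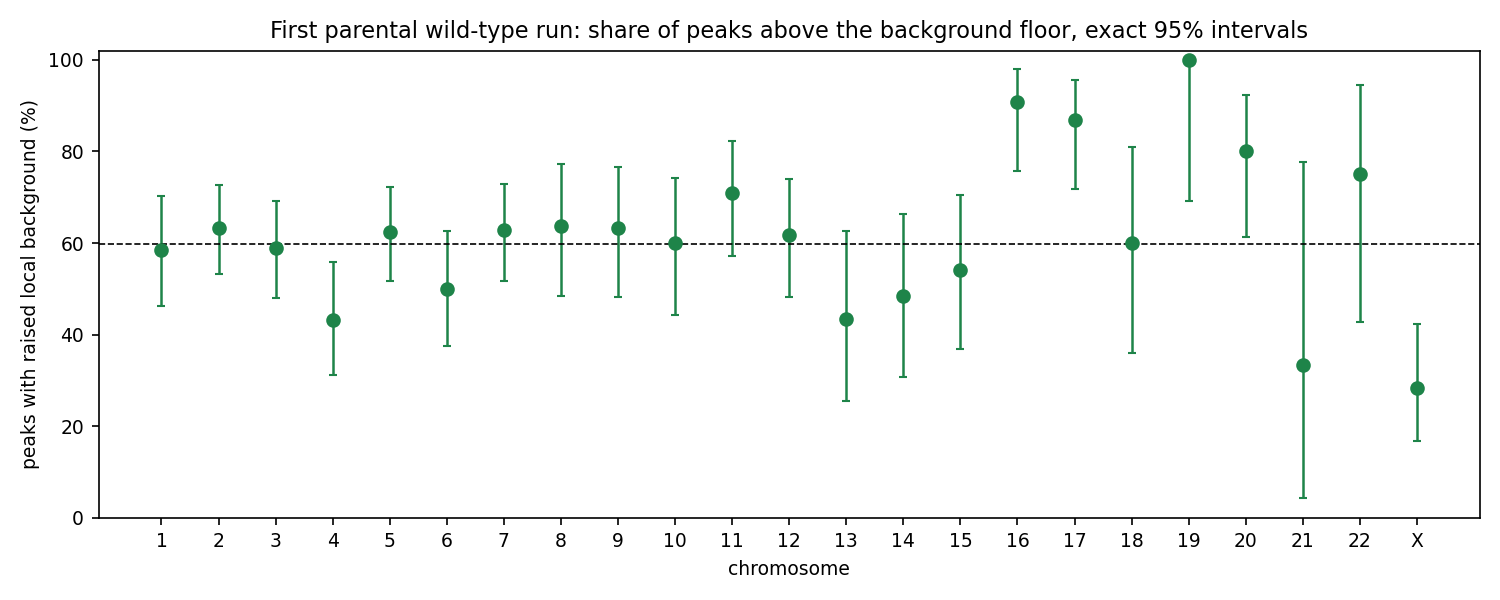
Share of peaks of the first parental wild-type run whose recovered local background exceeds the floor (percent), by chromosome, with exact 95% intervals; the dashed line is the share over all 1143 peaks, 59.8%. Chromosomes 16, 17 and 19 sit above the line with their whole interval, chromosome 20 as well, and chromosomes 4 and X below it.

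In the arms with high peak density the background was more often raised. Above the floor were 117 of 166 peaks of 3q, 5p, 7q and 12p (70.5%, 62.9 to 77.3%) and 35 of 69 peaks of 1p, 8p, 9p, 18q and 21q (50.7%, 38.4 to 63.0%), with 58.9% in the other arms. The 2 intervals overlap slightly. By arm the share was 82.8% on 5p, 76.4% on 3q, 64.0% on 12p and 61.4% on 7q. On the low side it was 27.3% on 18q, 33.3% on 9p and on 21q, 50% on 8p and 65.7% on 1p. The direction was the same in light and dark bands. In Giemsa-negative bands 78.9% of 71 peaks in the high arms and 55.2% of 29 in the low arms were above the floor, and in Giemsa-positive bands 64.2% of 95 and 47.5% of 40, with intervals that overlap in both. Over all 41 arms, peak density and share above the floor had a Spearman correlation of 0.36 and a Pearson correlation of 0.34, given as a description. Arms share the library and its base composition. Arms 19p and 19q, low in density with all of their 3 and 7 peaks above the floor, go against the trend. So do 16p (0.934, 13 of 13 peaks above the floor) and 17p (0.896, 7 of 8), among others.

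Peaks with more fragments were spread in the same direction but too few to separate the arms. Of the peaks in the high arms 15 of 166 (9.04%, 5.15 to 14.5%) had at least 3 fragments, and in the low arms 4 of 69 (5.80%, 1.60 to 14%).

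The peaks were spread evenly over light and dark bands. Giemsa staining tells GC-rich, gene-rich light bands from AT-rich, gene-poor dark ones. Relative density was 0.986 (0.922 to 1.05) in Giemsa-negative bands with 511 peaks and 0.963 (0.841 to 1.09) in the darkest class with 193. In the classes between, from light to dark, it was 0.870, 1.06 and 1.10, with 76, 171 and 180 peaks, and all 5 intervals held 1. The background was not even: 67.9% of the peaks in Giemsa-negative bands and 45.1% in the darkest class were above the floor. Among the 459 peaks at the floor the spread was uneven, with 0.794 in Giemsa-negative and 1.33 in the darkest bands. This follows from the shares just given, since band length was not limited to places at the floor.

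Of the 4 other runs with at least 50 peaks, all with more fragments per peak, 2 were uneven between Giemsa-negative and the darkest bands. In the second parental wild-type run, which had 83 peaks, at least 5 fragments per peak and a floor 16.1 times as high, relative density was 1.62 (1.39 to 1.82) in Giemsa-negative and 0.206 (0.0429 to 0.582) in the darkest bands. In the second PC9-OR METTL7A run, with 4870 peaks, it was 1.53 (1.5 to 1.56) and 0.166 (0.140 to 0.195). In both classes the intervals of each of these runs lay apart from those of the thin run. The PC9 METTL7A run, with 56 peaks, was at 1.01 (0.712 to 1.32) and 1.46 (0.844 to 2.24). The first PC9-OR METTL7A run, with 67 peaks, was at 0.772 (0.522 to 1.05) and 0.781 (0.368 to 1.39). All these intervals overlapped those of the thin run. In gpos50, the middle class, the first PC9-OR METTL7A run held 22 peaks, at 2.36 (1.58 to 3.26). That interval lay apart from the one of the thin run, 0.914 to 1.21. The 2 parental runs come from the list of the same wild-type group, so their contrast lies within 1 group. Which library gave each run is not stated, and the runs also differ in floor and in the fragments a peak needs. Between groups, the cells, the tagged METTL7A, osimertinib in the PC9-OR runs and the fragments a peak needs cannot be told apart.

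The second parental wild-type and the second PC9-OR METTL7A runs stood apart next to the chromosome ends. Within 5 Mb of an end the thin run held 66 peaks in 205 Mb, a relative density of 0.800 (0.623 to 1.01). From 5 to 20 Mb it was at 1.00, from 20 to 50 Mb at 1.06 and farther in at 0.966, with intervals that held 1. With 2-fragment peaks only, the outer 5 Mb were at 0.736 (0.560 to 0.949), below the mean. The second parental wild-type run had 21 of its peaks within 5 Mb of an end, at 3.51 (2.28 to 5.0), and the second PC9-OR METTL7A run 1606, at 4.60 (4.42 to 4.79). The PC9 METTL7A run was at 1.02 (0.282 to 2.45) there and the first PC9-OR METTL7A run at 1.9 (0.896 to 3.38).

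**Figure D3:**
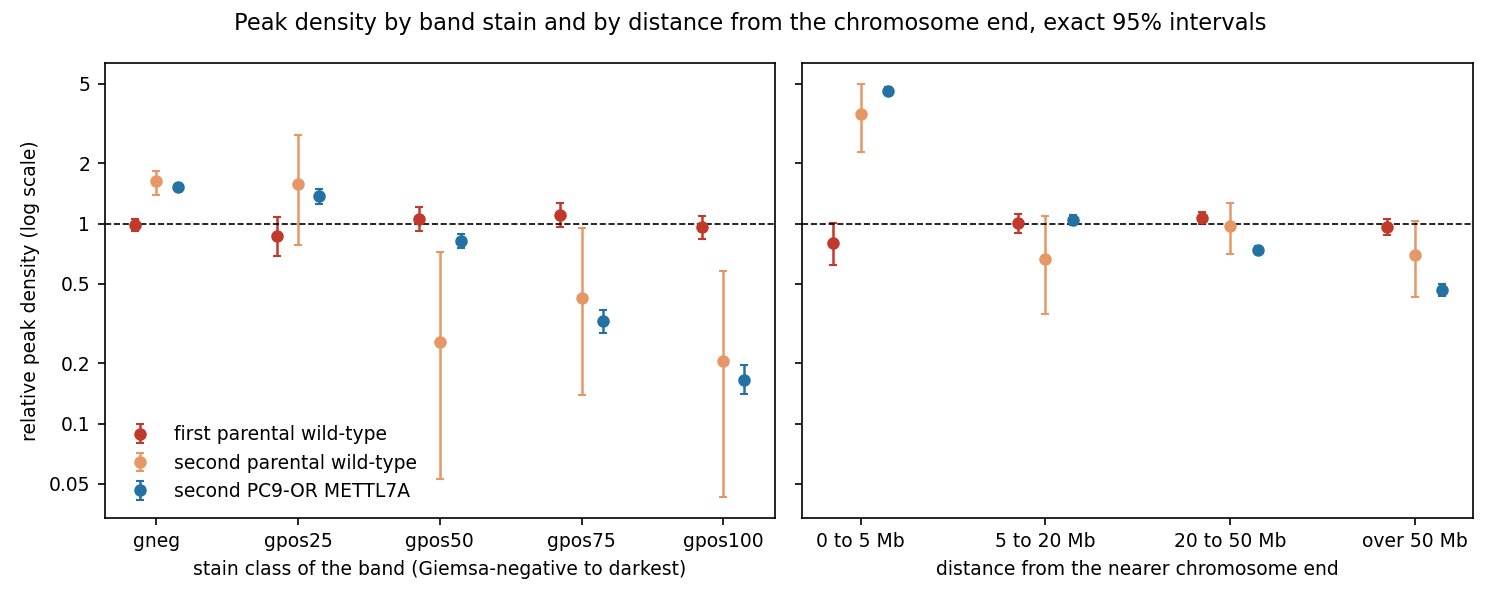
Relative peak density (log scale, genome mean = 1) by stain class of the band (left) and by distance from the nearer chromosome end in Mb (right), for 3 peak-calling runs, with exact 95% intervals. The first parental wild-type run stays between 0.800 and 1.10 in every class, whereas the other 2 runs fall to 0.206 and 0.166 in the darkest bands and reach 3.51 and 4.60 next to the chromosome ends.

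Set beside the second PC9-OR METTL7A run arm by arm, the thin run had the narrower range. Its arms spanned 0.373 to 1.87 and none was empty, while those of the PC9-OR run spanned 0.0248 on 9p to 9.54 on 20q. In the PC9-OR run the interval lay below the genome mean in 22 arms, or 53.7%, and above it in 10, or 24.4%. All 5 low arms of the thin run were among these 22, to be read against that share. Arm 9p held 2 of its peaks, 8p was at 0.191 (0.104 to 0.320), 21q at 0.278 (0.159 to 0.451) 18q at 0.358 (0.251 to 0.495) and 1p at 0.836 (0.718 to 0.968). Arms 19p and 19q, also among the 6 lowest of the thin run, were at 1.29 (0.94 to 1.73) and 2.44 (2.01 to 2.93). In the second parental wild-type run 13 of 41 arms held 0 peaks. Among them were 8p, 9p, 18q and 21q, with upper bounds of 2.09 to 3.66 that allow the genome mean. The densest arm of the thin run, 12p, was another, with an upper bound of 3.71. Arm 5p was high in all 3, at 1.56 in the thin run, 6.69 (3.14 to 12.1) in the second parental run with 9 peaks, and 3.64 (3.24 to 4.08) in the PC9-OR run.

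Other arms differed between the runs. The high arms 12p, 7q and 3q of the thin run were at 0.794 (0.580 to 1.06), 0.669 (0.552 to 0.804) and 0.583 (0.475 to 0.708) in the second PC9-OR METTL7A run. Arm 20q was at 1.55 in the thin run and at 9.54 (8.80 to 10.3) in the PC9-OR run, and 22q was at 0.893 (0.462 to 1.55) with 12 peaks against 5.77 (5.18 to 6.40). Arm 10p was at 1.11 (0.650 to 1.77) in the thin run and 0.0464 (0.00957 to 0.135) in the PC9-OR run. On Xp they were at 0.984 (0.626 to 1.47) and 0.0708 (0.0285 to 0.146). Over 41 arms the Spearman correlation of the thin run was 0.25 with the second PC9-OR METTL7A run and 0.41 with the second parental run. It was 0.30 with the first PC9-OR METTL7A run and lowest, at 0.23, with the PC9 METTL7A run. These are descriptions over arms that share their base composition. The PC9-OR run differs from the thin run in its cells, its tagged METTL7A, its osimertinib and the fragments a peak needs. These cannot be told apart.

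**Figure D4:**
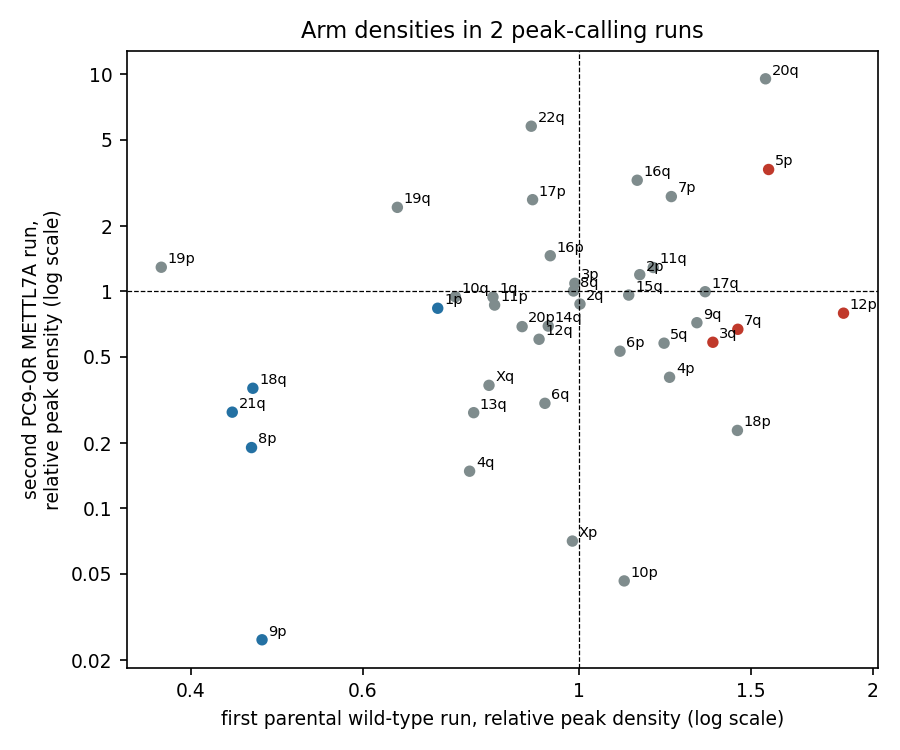
Relative peak density of the 41 arms in the first parental wild-type run (x axis) and the second PC9-OR METTL7A run (y axis), both on log scales with the genome mean at 1 (dashed). Red and blue mark arms above and below the mean in the parental run: 8p, 9p, 18q and 21q are low on both axes, 5p is high on both, 19p and 19q are low in the parental run and over 1 in the other, and 3q, 7q and 12p are high in the parental run but under 1 in the other. In the PC9-OR run the whole interval lay below the mean in 22 of the 41 arms and above it in 10.

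Single positions were hardly shared, but no chance level of overlap was computed. The thin run covered 340268 bp, beside 2812 Mb counted, so other lists have little room to overlap it. Whether the counts below differ from random placement was not tested. At 1 bp of overlap, 0 of the 1143 peaks lay on a peak of the second parental wild-type run, of PC9 with METTL7A, of the first PC9-OR METTL7A run or of any PC9-OR control run. Only 2 lay on a peak of the second PC9-OR METTL7A run, 0.175% of the thin run and 0.0411% of the other. One is the 4-fragment peak in 2p25.1 given above, which meets chr2:11263709-11264186 with 7 fragments. The other is chr11:879678-880080 in 11p15.5, with 3 fragments and a fold of 3.92, which meets chr11:879797-880136 with 4. Both are thus among the 89 peaks with at least 3 fragments. With peaks widened by 1 kb on each side, 20 were shared with that run (1.75%) and 0 with the others.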

How the data were processed

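MYC-tag immunoprecipitates of PC9 and PC9-OR cells were sequenced, with 20 M paired-end reads per library per the labels' protocols. The submitters' processing notes name Bowtie2 2.4.2, MACS2 2.2.7.1, bedtools 2.30 and build GRCh37; roles, settings and the control are not stated there. Each deposited list gives, per peak, a score, a fold enrichment (a ratio), −log10 p, −log10 q and a summit offset, all the authors' values. A list joins separate peak-calling runs, told apart by peak name and numbering. Read totals were not used here.

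Fragments k and background b were recovered from fold = (k + 1)/(b + 1) and the Poisson probability of more than k, for 1143 of 1143 peaks. The code was checked on simulated data. Relative density is the share of peaks divided by the share of band length, with bands of GRCh37 from the circlize package and peaks placed by summit. With 1 run there is no replicate, so no test was made. Samples were grouped by title. Named items are the 6 highest and 6 lowest arms of at least 10 Mb, the 8 densest bands of at least 3 Mb, the 10 peaks with most fragments and 14 gene bands. A further band of the list is not reported here. Members and lists were chosen with earlier results of these data known, and the background steps, segments of arms and background by stain were added after the data were seen. Python 3.11.15, NumPy 2.4.6, SciPy 1.17.1 and pandas 2.3.3 were used.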

Additional observations from a re-analysis of the deposited data

How the results depend on the processing

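Arm and chromosome densities stayed inside their main intervals for all 41 arms and 23 chromosomes with full band length, 2-fragment peaks only, peaks within 10 kb merged, 1 Mb round centromere bands left out, or autosomes as the reference. With 2-fragment peaks only, 3 arms were above and 4 below the genome mean: the intervals of 5p, 1p and 21q held it and that of 19p lay below. With full band length that of 1p held it. Among chromosomes, full band length took 19 out of the calls and brought in 3 and 13, and 2-fragment peaks only took out 21. The number of arms above the genome mean, 4, became 1 with the 89 peaks of 3 or more fragments and 1 with the 80 peaks whose −log10 q reached 2. The number below, 5, became 0 in both, which hold fewer peaks, and 2 with the 459 peaks at the background floor, where 3 other arms were above. No peak reached a −log10 q of 5. At the floor 3q turned to 0.813 and 5p to 0.676. Arm 8p turned to 1.48 with 3 or more fragments and to 1.65 at the stricter q, and 12p to 0.960 with 3 or more fragments. With 2-fragment peaks only, the outer 5 Mb (0.736) and 20 to 50 Mb (1.08) excluded 1. At the floor the evenness over stain and distance was lost: Giemsa-negative bands were at 0.794, gpos25 at 0.517, gpos75 at 1.35 and gpos100 at 1.33, the outer 5 Mb at 0.456, 5 to 20 Mb at 0.733 and over 50 Mb at 1.17. Band length was not limited to places at the floor, so densities there fall by construction where more peaks lie above it. Overlap with other runs, 2 peaks at 1 bp, was 20 with peaks widened by 1 kb and 1 at 50% of the shorter peak. With 1 run, leaving out a replicate was not possible.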
